A study of Mus musculus with 32 samples.

Results

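Brain tumour cells that had received the same pair of oncogenes in opposite order were compared with each other, 2 arrays of secondary tumours that got MYC first and HRAS second against 2 arrays of secondary tumours that got HRAS first and MYC second. These 4 arrays were chosen by their titles from the 32 Affymetrix Mouse Gene 1.0 ST arrays of the series, each of which measured total RNA of 1 neurosphere culture. All cells of the series descended from neurospheres that had been cultured from the wall of the lateral ventricle of Trp53-deficient mice after birth (strain label B6;129-Trp53tm1Brd), so loss of p53 is shared by every group and no oncogene-free cells are among the groups used here. In MYC then HRAS (n = 2), HRAS was overexpressed in sphere cells of a primitive neuroectodermal tumour (PNET) that MYC had produced. In HRAS then MYC (n = 2), MYC was overexpressed in sphere cells of a glioma that HRAS had produced. The other groups used were HRAS+MYC, which carried both oncogenes from the start and whose tumours are labelled as resembling atypical teratoid/rhabdoid tumour, AT/RT (n = 7), MYC alone with PNET (n = 6) and HRAS alone with glioma (n = 5). The last 2 are called the founder groups below, because they are the kinds of tumour from which the secondary tumours were started. They are not the very cultures that received the other oncogene, as far as the labels say.

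Flow cytometry selected the transgene-expressing cells of each tumour, and these were cultured as spheres before RNA was taken. The labels give neither the age of the mice nor the time between the oncogenes, nor whether the replicates of an order came from 1 or several starting tumours or animals. The p-values rest on a spread between arrays that is pooled over all 8 groups. Within an order that spread may be technical, so they do not show how far separate tumours of an order would differ.

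HRAS is a small GTPase that switches on the RAF, MEK and ERK kinases, and MYC is a transcription factor that binds DNA with MAX and raises growth and ribosome production. The order of mutations is studied in cancer because the second one acts on cells that the first has already changed. Simple epithelia build their cytoskeleton from keratins 8, 18 and 19 and join their cells by desmosomes, structures that neural stem cells and gliomas usually make little of. Human AT/RT often stains for epithelial markers as well as neural and mesenchymal ones.

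Values are log2 expression after robust multi-array averaging, so 1 unit is a factor of 2, and differences are MYC then HRAS minus HRAS then MYC with the standard error of a limma fit. Levels of different genes cannot be set against each other, since probe sets differ in brightness. Over all probe sets, the 2 MYC then HRAS arrays correlated at r = 0.9854 and the 2 HRAS then MYC arrays at 0.9904, while the 4 pairs across the orders ranged from 0.9682 to 0.9795. Of 5 neural stem cell markers, which checked the tissue, 4 and 3 lay above the median gene of the array in MYC then HRAS, against 3 and 2 in HRAS then MYC. Sox2 was 10.93 and 11.31 in MYC then HRAS against 10.74 and 10.98 in HRAS then MYC, and Nes was 9.43 and 9.52 against 8.98 and 8.40. Prom1 was low in all 4 arrays (4.56 to 4.86), and Fabp7 was low in 3 of them (4.24 to 4.52). The mouse Myc probe set read 7.46 and 7.76 in MYC then HRAS against 8.25 and 7.49 in HRAS then MYC, groups that overlapped, with a difference of -0.26 ± 0.56 (adjusted p 0.963). The same probe set ran from 10.44 to 12.85 in HRAS arrays, from 6.12 to 8.23 in MYC arrays and from 7.24 to 7.96 in HRAS+MYC arrays. HRAS then MYC differed from HRAS by -3.49 ± 0.47 (adjusted p 1.49e-05), and the cause was not tested. Which species the added MYC came from is not given in the labels, and Hras was not analysed here, so neither oncogene could be checked in the arrays. The 2 orders also differed in sex-linked genes. Xist, the RNA of the inactive X chromosome, measured 8.33 and 8.38 in MYC then HRAS against 4.29 and 4.55 in HRAS then MYC. Eif2s3y, a gene on the Y chromosome, measured 3.98 and 3.82 in MYC then HRAS against 7.55 and 8.18 in HRAS then MYC. Sex and order cannot be told apart in these 4 arrays. None of the 6 measured genes of the Xist and Y list passed the test (for Eif2s3y adjusted p 0.0784). That test pools the spread of all groups, and the standard deviation of Xist was 3.03 in MYC and 1.82 in HRAS+MYC. Within the orders it was 0.04 in MYC then HRAS and 0.18 in HRAS then MYC, so the missing calls decide nothing about sex.

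The order of the oncogenes went with large differences in a small share of the genes. Of 19938 genes, 338 (1.70%) were higher and 315 (1.58%) were lower in MYC then HRAS than in HRAS then MYC at a limma adjusted p under 0.05, together 653 genes or 3.28%. In all of them the 2 arrays of one order lay above the 2 of the other, which was so for 24.0% (higher) and 25.8% (lower) of all genes tested. The differences ran deeper on the higher side. A difference of at least 3 log2 units was found for 71 of the 338 higher genes and for 23 of the 315 lower ones, and the median size was 1.85 among the higher and 1.28 among the lower. The balance of the directions depends on scaling: centring each array on its median gene gave 274 higher and 470 lower. The calls depend on single arrays, because each order has 2. Without HRAS then MYC replicate 2 the counts were 117 and 78, without MYC then HRAS replicate 2 they were 134 and 72, and without HRAS then MYC replicate 1 they were 206 and 171.

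Keratins and desmosome genes were among those higher in MYC then HRAS. Of 14 measured genes of an epithelial list, 6 were higher in MYC then HRAS (Krt8, Krt18, Krt19, Epcam, Dsp and Jup), against the background of 1.70%. None was lower, and the median difference of the list was 1.04 against 0.00 over all genes. This list, like the other lists below, was chosen with earlier results of these data known. The contrast with all genes is therefore a description and not independent support. Krt8, the type II keratin of simple epithelia, measured 12.03 and 12.26 in MYC then HRAS against 6.98 and 6.28 in HRAS then MYC. Both MYC then HRAS arrays lay far above both others, and Krt8 was 5.52 ± 0.42 higher (adjusted p 1.85e-09). Krt19, a type I keratin that pairs with keratin 8, measured 10.94 and 9.88 in MYC then HRAS against 5.10 and 5.09 in HRAS then MYC. It was 5.31 ± 0.47 higher (adjusted p 2.59e-08), with no overlap. Krt18, the usual partner of keratin 8, measured 11.98 and 11.81 in MYC then HRAS against 7.80 and 6.25 in HRAS then MYC, where the replicates differed more. Krt18 was 4.87 ± 1.02 higher (adjusted p 0.00464), but missed the threshold without MYC then HRAS replicate 2 (0.0548) and without HRAS then MYC replicate 2 (0.159).

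The desmosomal plaque protein Dsp measured 7.53 and 8.03 in MYC then HRAS against 5.35 and 5.22 in HRAS then MYC. The adhesion molecule Epcam measured 7.72 and 8.40 in MYC then HRAS against 6.00 and 5.32 in HRAS then MYC. Both were higher in both arrays, by 2.49 ± 0.53 for Dsp (adjusted p 0.00587) and 2.40 ± 0.59 for Epcam (0.0189), and neither passed without MYC then HRAS replicate 2 (0.126 for Dsp and 0.278 for Epcam) or without HRAS then MYC replicate 2 (0.0926 and 0.308). Other members of the list did not pass, among them E-cadherin Cdh1 with a difference of 0.77 (adjusted p 0.438), the desmosomal Pkp1 with 1.31 (0.24) and Krt7 with 0.17 (0.91). Jup, a plaque protein shared by desmosomes and adherens junctions, was named after its values were seen and was 2.27 ± 0.56 higher (adjusted p 0.019), a call that each of the 4 fits without 1 array lost (0.0653 to 0.256). Between 2 and 5 of the 14 were called when 1 array was left out. In bulk RNA, fewer cells that express a gene and less RNA per cell cannot be told apart.

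Several epithelial genes outside the list moved the same way, and they are named here after their values were seen. Cdx2, a homeobox factor of trophectoderm and gut, measured 10.01 and 9.98 in MYC then HRAS against 5.93 and 5.62 in HRAS then MYC (difference 4.22 ± 0.38). The tight junction protein F11r measured 9.19 and 8.64 against 5.53 and 4.64, a difference of 3.83 ± 0.63. Ripk4, a kinase needed for epidermal differentiation, measured 8.49 and 8.54 against 4.65 and 4.61, a difference of 3.89 ± 0.54. All 3 stayed under an adjusted p of 0.05 with any 1 array left out. Spint1, an inhibitor of membrane proteases of epithelia, measured 9.45 and 9.30 in MYC then HRAS against 6.39 and 5.79 in HRAS then MYC. It was 3.29 ± 0.65 higher (adjusted p 0.0026, and 0.0809 without HRAS then MYC replicate 2). The p53 effector Perp, which is also a desmosome component, measured 9.62 and 8.46 in MYC then HRAS against 4.95 and 5.21 in HRAS then MYC. It was 3.96 ± 0.73 higher (adjusted p 0.00122). Perp was the 1 called gene of 13 measured p53 targets, and 1.70% of all genes were called higher.

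**Figure D1:**
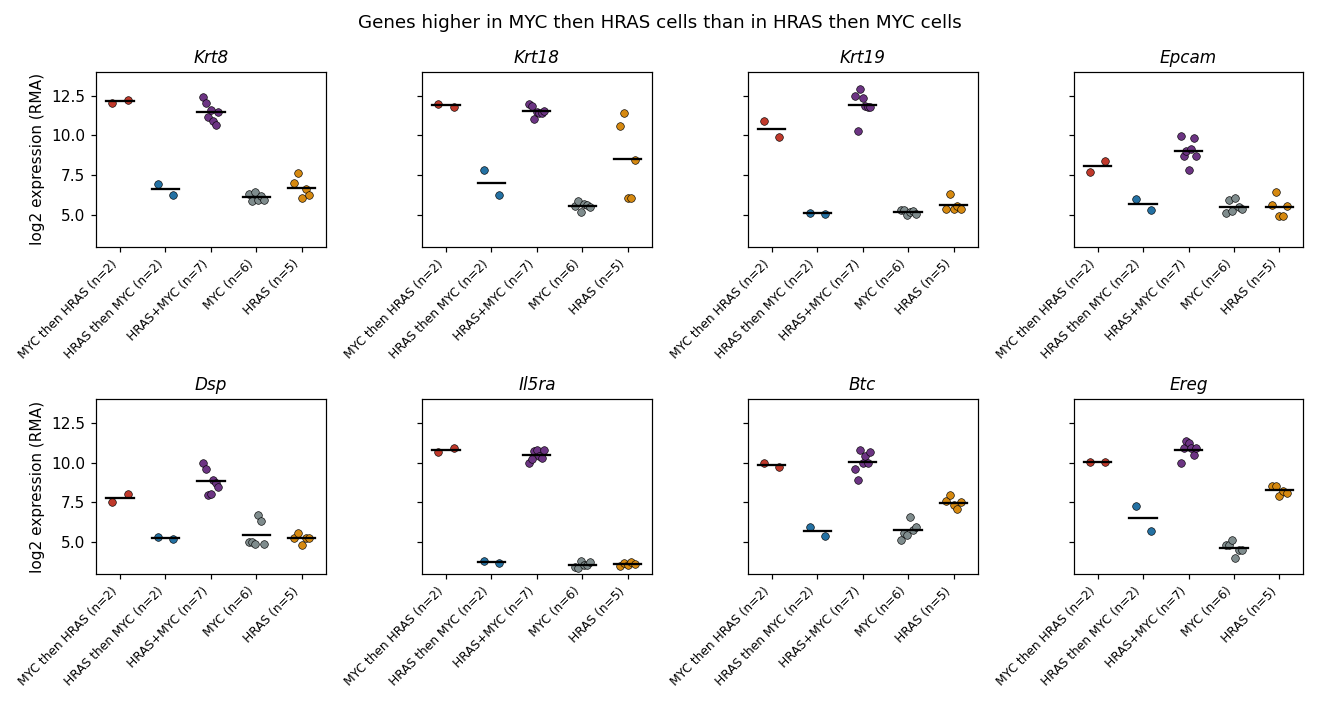
Log2 expression (vertical axis) of 8 genes that were higher in MYC then HRAS than in HRAS then MYC. Each point is 1 array, the line is the group mean, and n is the number of arrays. The 2 MYC then HRAS arrays sit among or near the 7 HRAS+MYC arrays in each panel, and the 2 HRAS then MYC arrays lie below them, for Krt8 at 6.98 and 6.28.

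The largest single difference was that of Il5ra, the receptor chain that binds interleukin 5. It measured 10.70 and 10.93 in MYC then HRAS against 3.80 and 3.70 in HRAS then MYC, a difference of 7.06 ± 0.20 (adjusted p 1.03e-19). In the founder groups the gene was at the low end of the scale, with lowest, median and highest values of 3.36, 3.57 and 3.80 in MYC and 3.48, 3.65 and 3.75 in HRAS, while HRAS+MYC arrays read 10.00, 10.41 and 10.82. The HRAS then MYC arrays lay within or next to the range of the founder groups. Anxa8, a membrane-binding annexin, showed the same layout. It measured 10.62 and 10.82 in MYC then HRAS against 4.75 and 4.72 in HRAS then MYC, a difference of 5.99 ± 0.60. Nos3, the endothelial nitric oxide synthase, measured 11.70 and 10.95 in MYC then HRAS against 5.95 and 5.77 in HRAS then MYC, a difference of 5.46 ± 0.87. Plet1, a surface protein of placental and epithelial progenitors, measured 11.98 and 11.77 in MYC then HRAS against 7.66 and 6.11 in HRAS then MYC, a difference of 4.99 ± 0.86. Non-overlap between the orders was part of the rule that chose these 4 genes. With any 1 array left out the differences ran from 6.95 to 7.18 for Il5ra and from 5.89 to 6.09 for Anxa8. They ran from 5.09 to 5.84 for Nos3 and from 4.22 to 5.76 for Plet1.

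Prxl2a, a redox protein, differed in another way: it was lower in HRAS then MYC than in every array of the founder groups and of HRAS+MYC. It measured 12.56 and 12.32 in MYC then HRAS against 6.44 and 5.76 in HRAS then MYC (6.34 ± 0.68, adjusted p 7.45e-07), whereas MYC arrays ran from 7.87 to 9.40 and HRAS arrays from 8.92 to 10.02. Pgap1, which remodels the lipid anchor of surface proteins, followed the same pattern against the founders. It measured 11.15 and 11.48 in MYC then HRAS against 6.78 and 6.16 in HRAS then MYC (4.84 ± 0.41), with MYC arrays between 9.24 and 10.23 and HRAS arrays between 6.84 and 8.80. The kinase Hipk2, a regulator of transcription, measured 8.44 and 8.84 in MYC then HRAS against 6.63 and 5.75 in HRAS then MYC (2.45 ± 0.37), below every MYC array (8.29 to 9.69) and every HRAS array (8.09 to 8.80).

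Upstream sequence was looked at for 2 motifs, AP-1 letters (TGANTCA, any base in the middle) and the E-box bound by MYC and MAX (CACGTG). The FOS and JUN factors downstream of RAS signalling bind mainly TGACTCA and TGAGTCA, so TGANTCA is a looser pattern than their site. Windows of 250 bases before to 50 after a gene's start came from RefSeq (GRCm38.p6), both strands were searched, and each motif was counted on its own. Of 351 windows of 262 higher genes 12.25% held the AP-1 letters, against 6.116% of 327 windows of 247 lower genes and 6.899% of 19177 windows of all genes tested. The E-box was in 9.117% of the windows of higher genes, 7.951% of those of lower genes and 8.244% of all. These shares describe letters and not binding. Shown are 3 higher genes whose window holds an AP-1 match (in capitals), to let the neighbourhood be read; Il5ra lies at chr6:106748988-106749287 on the minus strand, Plet1 at chr9:50494275-50494574 and Spint1 at chr2:119237110-119237409, both on the plus strand.
Il5ra: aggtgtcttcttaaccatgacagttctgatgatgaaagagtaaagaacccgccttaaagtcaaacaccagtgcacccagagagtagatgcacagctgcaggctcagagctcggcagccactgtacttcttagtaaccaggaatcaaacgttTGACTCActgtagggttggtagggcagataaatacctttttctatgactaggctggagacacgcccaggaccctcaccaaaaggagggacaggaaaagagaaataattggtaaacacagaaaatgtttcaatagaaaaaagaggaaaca
Plet1: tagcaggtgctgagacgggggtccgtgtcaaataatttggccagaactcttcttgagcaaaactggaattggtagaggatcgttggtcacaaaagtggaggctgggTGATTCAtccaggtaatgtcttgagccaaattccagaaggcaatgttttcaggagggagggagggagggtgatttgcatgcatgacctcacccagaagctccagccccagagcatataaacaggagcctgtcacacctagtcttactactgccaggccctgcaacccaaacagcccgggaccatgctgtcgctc
Spint1: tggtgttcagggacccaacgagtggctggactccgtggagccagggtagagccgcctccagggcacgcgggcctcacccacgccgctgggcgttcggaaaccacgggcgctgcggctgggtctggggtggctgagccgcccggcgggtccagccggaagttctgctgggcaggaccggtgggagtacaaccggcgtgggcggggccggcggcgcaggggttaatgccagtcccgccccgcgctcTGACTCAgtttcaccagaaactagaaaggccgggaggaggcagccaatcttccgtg

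The matches begin 99 bases before the start in Il5ra, 144 in Plet1 and 6 in Spint1, and no window of the 3 holds the E-box. The match in Plet1, TGATTCA, has neither C nor G in the middle.

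Most genes of the RAS and MAP kinase list were not called. Of its 25 measured genes 3 were higher (Ereg, Hbegf and Epha2) and 1 was lower (Spry1), against 1.70% and 1.58% of all genes, with a median difference of 0.30. Of 30 measured growth factor ligands and receptors 1 was higher (Btc) and 2 were lower (Fgfr1 and Pdgfrb), with a median of 0.10. Ereg, the ligand epiregulin, measured 10.06 and 10.05 in MYC then HRAS against 7.31 and 5.72 in HRAS then MYC, a difference of 3.54 ± 0.39 (adjusted p 1.01e-06). Betacellulin (Btc), a related ligand from the growth factor list, measured 10.00 and 9.71 against 5.98 and 5.42, a difference of 4.16 ± 0.48. Heparin-binding EGF (Hbegf) measured 11.08 and 11.11 against 9.11 and 8.32, a difference of 2.38 ± 0.47 (adjusted p 0.00293) that was not called without HRAS then MYC replicate 2 (0.129). In all 3 ligands every MYC then HRAS array was above every HRAS then MYC array, as in every gene called higher. The related ligands Tgfa (0.62, adjusted p 0.35), Epgn (0.55, 0.75) and Egf (0.08, 0.98) did not pass. The receptor tyrosine kinase Epha2, a transcriptional target of RAS signalling, measured 11.11 and 10.95 in MYC then HRAS against 8.66 and 7.99 in HRAS then MYC (2.70 ± 0.37). The feedback inhibitor Spry1, which dampens receptor signalling to RAS, went the other way, at 7.89 and 8.11 in MYC then HRAS against 10.14 and 10.36 in HRAS then MYC (-2.25 ± 0.34, adjusted p 0.000113). Fgfr1, a receptor whose signal Sprouty proteins restrain, was lower as well, at 8.24 and 8.12 in MYC then HRAS against 10.24 and 10.39 in HRAS then MYC (-2.13 ± 0.31). Phosphatases and factors that report ERK activity were not called, among them Dusp6 with -1.23 (adjusted p 0.49), Etv4 with -0.27 (0.95), Fosl1 with 0.89 (0.081) and Ccnd1 with 0.30 (0.89).

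Other signalling lists had few calls. Of 20 measured genes of BMP and TGF-beta signalling 4 were higher (Id1, Bmp2, Tgfb1 and Inhba) and 1 was lower (Tgfb3), against 1.70% and 1.58% of all genes. Tgfb1 was 2.05 ± 0.46 higher (adjusted p 0.00903) and Inhba 1.46 ± 0.38 higher (0.0271). Neither is counted among the named genes whose calls were followed under other settings. Id1, a target of BMP signalling that blocks differentiation factors, measured 10.20 and 10.15 in MYC then HRAS against 7.55 and 7.69 in HRAS then MYC (2.55 ± 0.41, adjusted p 0.000265). The ligand Bmp2 measured 7.19 and 9.28 against 5.01 and 4.79 (3.33 ± 0.67) and the ligand Tgfb3 measured 7.34 and 6.36 against 9.56 and 9.02 (-2.44 ± 0.55). Their groups did not overlap, as in every called gene. Neither ligand kept its call without MYC then HRAS replicate 2, where the difference was 2.28 for Bmp2 and -1.95 for Tgfb3. Bmp2 also lost its call without HRAS then MYC replicate 2 (difference 3.22), and Tgfb3 without HRAS then MYC replicate 1 (difference -2.16). The NOTCH ligands Jag1 (2.37 ± 0.56) and Dll4 (2.59 ± 0.61) were the called members of 15 measured NOTCH genes, and both were higher. The WNT receptors Fzd1 (2.56 ± 0.55) and Fzd3 (2.14 ± 0.53) were higher among 19 measured WNT genes. Jag1 and Fzd3 missed the threshold whichever of the 4 arrays was left out (adjusted p up to 0.118 for Jag1 and 0.226 for Fzd3). Fzd1 missed it without MYC then HRAS replicate 1 (0.0625) or HRAS then MYC replicate 2 (0.112), and Dll4 without MYC then HRAS replicate 2 (0.339), HRAS then MYC replicate 1 (0.099) or HRAS then MYC replicate 2 (0.121). The targets that report NOTCH and WNT activity were not called, Hes1 with -0.96 (0.16), Hey1 with 1.43 (0.31) and Axin2 with 0.08 (0.99).

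Some matrix genes were lower in MYC then HRAS. Of 23 measured genes of the list 4 were lower (Col3a1, Col6a1, Postn and Col1a1) and 1 was higher (Tgfbi), against 1.58% and 1.70% of all genes, with a median difference of -0.54 against 0.00 over all genes. Col3a1, a fibrillar collagen, measured 8.60 and 8.60 in MYC then HRAS against 11.67 and 11.79 in HRAS then MYC. The HRAS then MYC arrays exceeded also every HRAS array (8.03 to 10.35), and the difference between the orders was -3.13 ± 0.54 (adjusted p 0.000663). Lama4, a laminin chain of vascular and mesenchymal basement membranes outside the list, measured 5.39 and 4.44 in MYC then HRAS against 8.32 and 7.77 in HRAS then MYC (-3.13 ± 0.41). Periostin (Postn) measured 3.70 and 3.94 in MYC then HRAS against 4.98 and 5.75 in HRAS then MYC, low values with a difference of -1.54 ± 0.16 (adjusted p 7.31e-07, and 0.0561 with the 2 orders alone in the fit). Col6a1 (-1.90 ± 0.49) and Col1a1 (-0.54 ± 0.14) lost their calls without MYC then HRAS replicate 2 (0.309 for Col6a1 and 0.368 for Col1a1) or HRAS then MYC replicate 1 (0.495 and 0.375). Tgfbi, a matrix protein induced by TGF-beta, was higher at 8.80 and 9.64 in MYC then HRAS against 6.87 and 6.25 in HRAS then MYC (2.66 ± 0.62), a call lost without MYC then HRAS replicate 2 (adjusted p 0.243) or HRAS then MYC replicate 2 (0.221). Fibronectin Fn1 (-2.50, adjusted p 0.07) and the factors Zeb1 (-1.60, 0.18) and Twist1 (-1.69, 0.36) did not pass. With 1 array left out between 2 and 5 of the 23 were called lower.

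Large falls were in genes of several kinds, of which only a part is named here. Trp53i11, a p53-inducible membrane protein, measured 6.08 and 6.50 in MYC then HRAS against 11.99 and 12.50 in HRAS then MYC, a difference of -5.95 ± 0.99 (adjusted p 0.000434). Apela, a peptide ligand of the apelin receptor, measured 3.48 and 3.66 in MYC then HRAS against 7.99 and 8.63 in HRAS then MYC, a difference of -4.74 ± 0.67. Crispld1, a secreted protein of the CAP family, measured 4.95 and 4.85 in MYC then HRAS against 8.57 and 9.65 in HRAS then MYC, a difference of -4.21 ± 0.32 (adjusted p 1.85e-09). For Apela and Crispld1 the 2 HRAS then MYC arrays were higher than every array of HRAS (highest 7.59 and 6.72), MYC (3.58 and 5.10) and HRAS+MYC (3.71 and 5.00). The axon guidance ligand Sema5a measured 5.33 and 5.79 in MYC then HRAS against 8.71 and 9.34 in HRAS then MYC (-3.46 ± 0.61). The integrin chain Itga4, which binds fibronectin and VCAM-1, measured 6.14 and 5.16 in MYC then HRAS against 10.19 and 10.28 in HRAS then MYC (-4.59 ± 0.91), and it was not called without MYC then HRAS replicate 2 (adjusted p 0.088). Lipa, the lysosomal acid lipase, measured 4.94 and 5.74 in MYC then HRAS against 8.61 and 8.98 in HRAS then MYC (-3.45 ± 0.53), and the chromatin organiser Satb1 measured 5.84 and 5.06 against 8.05 and 7.99 (-2.57 ± 0.34).

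**Figure D2:**
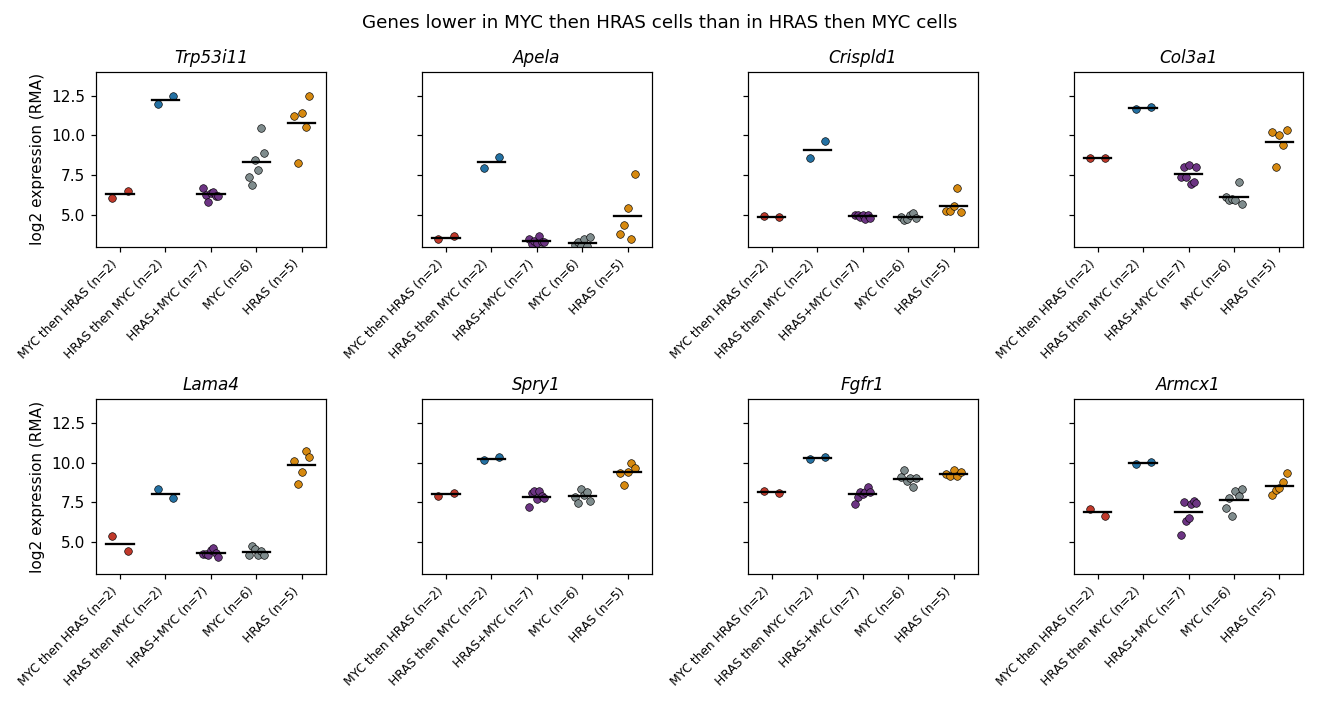
Log2 expression (vertical axis) of 8 genes that were lower in MYC then HRAS than in HRAS then MYC. Each point is 1 array, the line is the group mean, and n is the number of arrays. For Apela and Crispld1 the 2 HRAS then MYC arrays (7.99 and 8.63 for Apela) lie above the arrays of the 4 other groups shown.

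Some X-linked genes were also lower. X-linked genes of the Armcx, Bex, Tceal and Nxf families and Bhlhb9 were looked at after the values were seen. They were picked by name, so the counts are over these families and not over all genes of a region. Of the 19 measured genes 5 were lower (Armcx1, Armcx2, Armcx3, Armcx4 and Tceal8), against 1.58% of all genes. The other 14 did not pass, and the median was -0.26. No Bex or Nxf gene was called, and Bex1 had a difference of 2.79 (adjusted p 0.11). Armcx4 measured 6.21 and 6.33 in MYC then HRAS against 8.99 and 9.67 in HRAS then MYC (-3.06 ± 0.36). Armcx1 measured 7.09 and 6.66 in MYC then HRAS against 9.91 and 10.03 in HRAS then MYC (-3.09 ± 0.62). Armcx4 was called with any 1 array left out, whereas Armcx1 was not called without MYC then HRAS replicate 2 (adjusted p 0.0782) or HRAS then MYC replicate 2 (0.0591). Tceal8, Armcx2 and Armcx3 were not called without MYC then HRAS replicate 2 (0.0538, 0.0513 and 0.0522), nor Armcx2 without HRAS then MYC replicate 1 (0.0754), and Armcx3 lost its call whichever array was left out (up to 0.291). On the whole X chromosome 10 of 742 genes were higher and 21 were lower, a share of 4.18% against 3.28% of all genes, and chromosomes 3 (5.40%), 15 (5.05%) and 10 (5.01%) had larger shares. The part of sex in this was not tested. Among the autosomes, calls leaned to 1 side on, for example, chromosomes 3 (12 higher and 39 lower, median -0.09), 4 (29 and 7, median 0.09), 7 (37 and 9, median 0.05) and 13 (24 and 5, median 0.05). A count of DNA copies was not made, and only 1 run of 3 adjacent genes called in the same direction was found (Brwd3, Hmgn5 and Sh3bgrl on X, all lower). All 3 lost their calls without MYC then HRAS replicate 2 (0.082, 0.095 and 0.145) or HRAS then MYC replicate 2 (0.438, 0.137 and 0.0626), and Brwd3 also without MYC then HRAS replicate 1 (0.129).

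**Figure D3:**
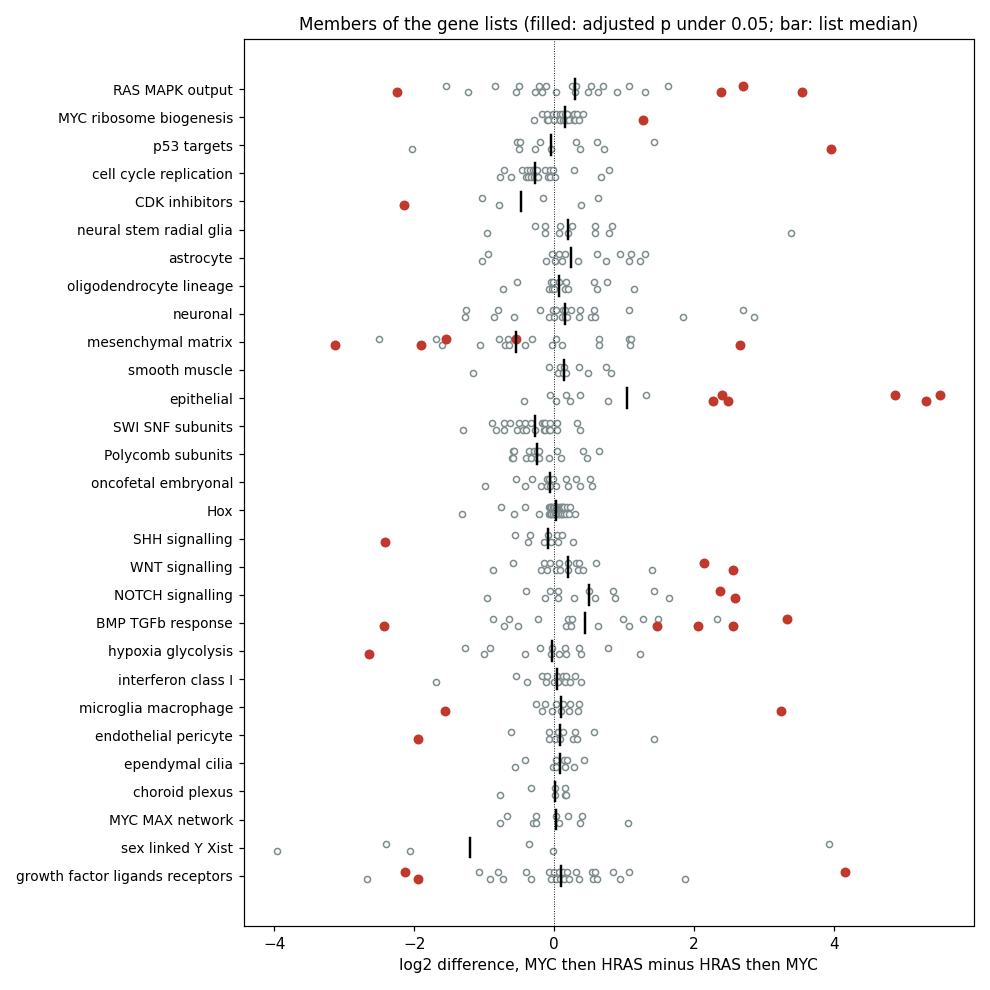
Log2 difference, MYC then HRAS minus HRAS then MYC (horizontal axis), for every measured member of 29 gene lists (rows). Filled points passed at a limma adjusted p under 0.05, open points did not, and the bar is the list's median. The epithelial list has 6 filled points to the right, the matrix list has 4 to the left and 1 to the right, and 15 lists have none.

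Lists of neural lineage, cell cycle and chromatin genes held no gene called between the orders. The fit pools the spread of all groups, and some neural markers had large standard errors (1.67 for Olig2 and 1.29 for Sox2). The median standard error over all genes was 0.233, so for such markers a missing call does not show equal levels. No member passed among 24 cell cycle genes, 13 neural stem, 16 astrocyte, 15 oligodendrocyte and 25 neuronal genes, 11 smooth muscle genes, 25 SWI/SNF subunits, 18 Polycomb subunits and 37 Hox genes. Both MYC then HRAS arrays were the lower ones for 15 SWI/SNF, 12 Polycomb and 13 cell cycle genes (25.8% of all genes). They were the higher ones for 2, 3 and 3 (24.0%). The list medians were -0.28, -0.25 and -0.27, and the part of scaling was not tested. Against HRAS+MYC, 8 SWI/SNF subunits were called higher in HRAS then MYC (6.89% of all genes). Fabp7, a fatty acid binding protein of radial glia, measured 10.89 and 4.52 in MYC then HRAS against 4.41 and 4.24 in HRAS then MYC, so its difference of 3.38 (adjusted p 0.62) rests on MYC then HRAS replicate 1 and was 0.19 without it. That array was also the highest of the 4 for the glial genes Slc1a3 (8.77, the other MYC then HRAS array 5.77) and Olig1 (7.13, the other 5.25). Gfap, the filament of astrocytes, measured 6.96 and 5.38 in MYC then HRAS against 5.47 and 4.97 in HRAS then MYC. The oligodendrocyte factor Olig2 measured 6.60 and 5.14 against 4.96 and 5.28, and neuronal Map2 measured 6.36 and 5.38 against 5.86 and 4.71. The orders overlapped in all 3. Smarcb1, the SWI/SNF subunit lost in human AT/RT, measured 10.21 and 9.98 in MYC then HRAS against 10.42 and 10.78 in HRAS then MYC, a difference of -0.50 ± 0.18 (adjusted p 0.133). The proliferation marker Mki67 measured 9.67 and 9.21 against 9.84 and 9.73 (-0.34 ± 0.42, adjusted p 0.89). Of 27 genes of MYC and ribosome production 1 was called, the polyamine enzyme Odc1, higher by 1.27 ± 0.30 (adjusted p 0.0136). Over all genes 1.70% were called higher, so 1 call says nothing about the list. Odc1 was not called without MYC then HRAS replicate 2 (0.491), HRAS then MYC replicate 1 (0.0835) or HRAS then MYC replicate 2 (0.141).

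Markers of host cells, which a sort for transgene expression would remove, were mostly below the median gene of their array. Of 7 microglia and macrophage markers 1 (Cd68) lay above the median gene of its array in each of the 4 arrays, and their mean level was 5.57 and 5.59 in MYC then HRAS against 5.12 and 5.03 in HRAS then MYC. Cd68, a lysosomal protein that other cells make too, was the called one of the 7 (3.25 ± 0.82, adjusted p 0.0229), a call lost without MYC then HRAS replicate 2 (0.331), HRAS then MYC replicate 1 (0.0765) or HRAS then MYC replicate 2 (0.289). A longer microglia and macrophage list of 13 measured genes held Cd68 as 1 higher and Tmem119 as 1 lower gene. Over all genes 1.70% were called higher and 1.58% lower, so single calls say nothing about lists this short. Tmem119, a membrane protein of microglia that other cells make too, measured 5.18 and 5.14 in MYC then HRAS against 6.63 and 6.81 in HRAS then MYC (-1.56 ± 0.29, adjusted p 0.00157). Of 7 endothelial and pericyte markers none lay above the median gene in MYC then HRAS and 1 did in HRAS then MYC, where Pdgfrb was called. Pdgfrb, a receptor of pericytes and other mesenchymal cells, measured 5.46 and 4.99 in MYC then HRAS against 7.71 and 6.63 in HRAS then MYC (-1.94 ± 0.39, adjusted p 0.00314), a call lost without MYC then HRAS replicate 2 (0.0988) or HRAS then MYC replicate 1 (0.125). The part of host cells in these differences was not tested. No ependymal or choroid plexus marker of the 3 each did so in any of the 4 arrays.

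The founder groups gave a way to ask whether each order resembled the tumour it had started from. MYC and HRAS arrays share none with the orders, and 6655 genes (33.4%) differed between them, 3589 (18.0%) higher in MYC and 3066 (15.4%) higher in HRAS. Had each order kept the profile of its first oncogene, genes higher in MYC would be higher in MYC then HRAS. Among the 338 genes higher in MYC then HRAS, 19 (5.62%) were higher in MYC, 190 (56.2%) were higher in HRAS and 129 (38.2%) were not called between the founders. Among the 315 lower genes 85 (27.0%) were higher in MYC, 93 (29.5%) were higher in HRAS and 137 (43.5%) were not called. Across all genes the order difference and the founder difference correlated at r = -0.12, a value over genes, which are not independent replicates.

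In all, 275 genes ran against the founders, the 190 on the higher side and the 85 on the lower side. By this choice of genes the 190 had a negative founder difference (median -1.68) and a positive order difference (median 1.86). Slc9a2, a sodium and proton exchanger, is the steepest of those named. It measured 10.94 and 11.71 in MYC then HRAS against 6.67 and 6.26 in HRAS then MYC (4.86 ± 0.31), while MYC arrays ran from 4.59 to 5.04 and HRAS arrays from 9.25 to 10.78 (-5.32 between MYC and HRAS). Each group ended nearer to the other founder's level than to its own. Epha2 and Ereg belonged to the same class, with founder differences of -4.87 and -3.63.

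A further 19 higher genes and 93 lower genes kept the founders' direction. Slc35f2, a membrane transporter, measured 9.72 and 10.27 in MYC then HRAS against 4.65 and 4.65 in HRAS then MYC (5.35 ± 0.79), with MYC arrays from 6.86 to 10.00 and HRAS arrays from 4.67 to 4.94 (3.16 between MYC and HRAS). Fam169a measured 8.41 and 7.96 in MYC then HRAS against 4.23 and 4.29 in HRAS then MYC (3.92 ± 0.64), with a founder difference of 3.10. On the side of HRAS, Lama4 and Sema5a were lower in MYC then HRAS and had founder differences of -5.48 and -3.10.

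Part of the founder differences was smaller between the orders. The difference of the order and the founder differences was called for 3582 genes (18.0%), with 1744 (8.75%) positive and 1838 (9.22%) negative, and 2757 of the 6655 founder genes (41.4%) had a smaller difference by that test and were not called between the orders. The founder arrays both chose these genes and enter that test. Without HRAS then MYC replicate 2 the genes with a negative difference of differences numbered 853, and without MYC then HRAS replicate 2 they numbered 1105. Anxa1, an annexin, measured 12.51 and 12.71 in MYC then HRAS against 12.22 and 11.86 in HRAS then MYC, near the HRAS arrays (11.53 to 12.06) and far from the MYC arrays (4.14 to 5.92). The calcium-binding S100a6 measured 12.21 and 12.02 in MYC then HRAS against 12.44 and 12.23 in HRAS then MYC, against 4.79 to 5.83 in MYC. Both orders were likewise near HRAS and below MYC for the neuronal membrane protein Gpm6a, at 5.16 and 4.59 in MYC then HRAS against 4.59 and 4.45 in HRAS then MYC, with MYC arrays from 10.01 to 12.05 and HRAS arrays from 4.04 to 7.42. On a line from the HRAS mean (0) to the MYC mean (1) over all genes, the MYC then HRAS arrays stood at 0.322 and 0.274 and the HRAS then MYC arrays at 0.360 and 0.411. The order that started from HRAS was the one further towards MYC. With 2 arrays a side an exact permutation test cannot give a 2-sided p below 0.333, so the positions are given without a test.

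**Figure D4:**
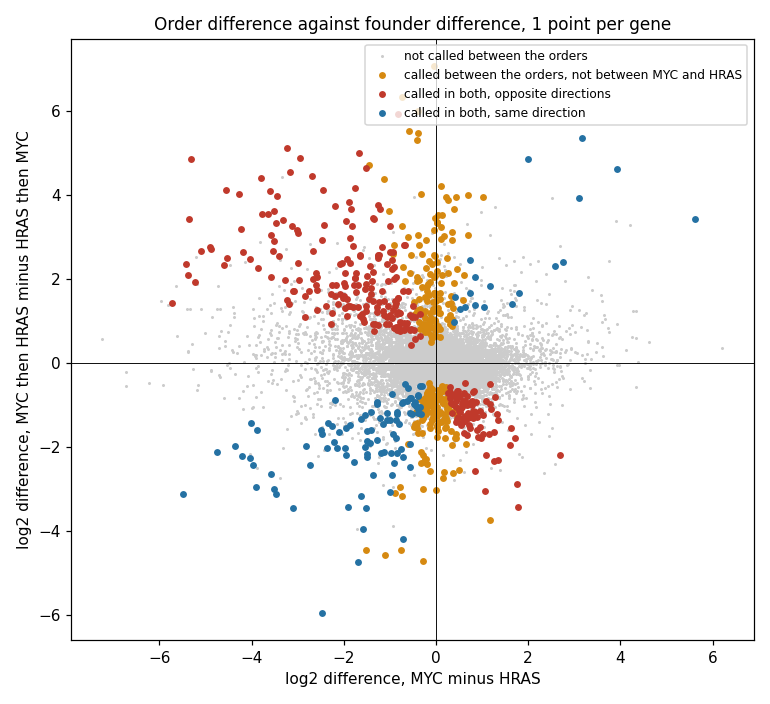
Each point is 1 gene, with its log2 difference MYC minus HRAS (horizontal axis) and its log2 difference MYC then HRAS minus HRAS then MYC (vertical axis). Red points at the upper left include the 190 genes that were higher in HRAS than in MYC and higher in MYC then HRAS, and the 19 blue points at the upper right were higher in both.

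The group with both oncogenes from the start lay with one order. Set against HRAS+MYC, 22 genes (0.110%) were called in MYC then HRAS, 14 higher (0.0702%) and 8 lower (0.0401%). In HRAS then MYC 2405 genes (12.1%) were called, 1374 higher (6.89%) and 1031 lower (5.17%). The 2 comparisons share the HRAS+MYC arrays and have the same median standard error, 0.187, and at an unadjusted p under 0.05 they held 1470 and 4643 genes. Without HRAS then MYC replicate 2 the calls in HRAS then MYC were 302 higher and 303 lower, and without replicate 1 they were 596 and 469. The mean HRAS+MYC level was nearer to MYC then HRAS in 317 of the 338 higher genes and in 305 of the 315 lower genes, and in 63.0% of all genes. The higher genes differed from HRAS+MYC by a median of 0.09 in MYC then HRAS and of -1.74 in HRAS then MYC. For the lower genes these medians were -0.01 and 1.20. Over all genes the root mean square distance from the HRAS+MYC mean was 0.368 and 0.353 log2 units for the MYC then HRAS arrays and 0.602 and 0.662 for the HRAS then MYC arrays. Single HRAS+MYC arrays had distances from 0.238 to 0.418 from the mean of the other HRAS+MYC arrays.

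**Figure D5:**
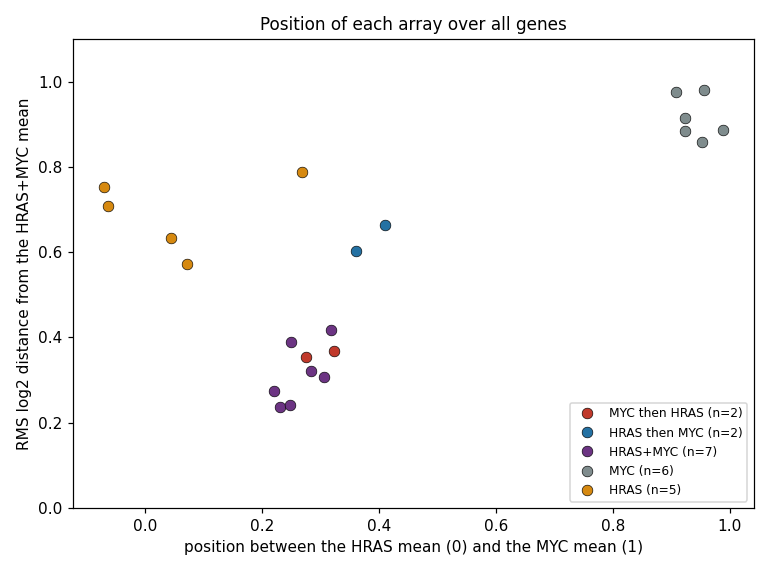
Position of each array on the line from the HRAS mean (0) to the MYC mean (1) over all genes (horizontal axis) and its root mean square log2 distance from the HRAS+MYC mean (vertical axis). An array did not count towards the mean it was set against. The 2 MYC then HRAS points (0.368 and 0.353) lie within the range of the HRAS+MYC points and the 2 HRAS then MYC points (0.602 and 0.662) above it. One HRAS array stands apart from the other HRAS arrays, at 0.268 on the horizontal axis.

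The few genes that set MYC then HRAS apart from HRAS+MYC included 6 that were also higher than in HRAS then MYC, of which 3 were picked after their values were seen. Padi4, an enzyme that turns arginine in proteins into citrulline, measured 8.35 and 7.95 in MYC then HRAS against 6.00 and 4.44 in HRAS then MYC, with a median of 5.83 in HRAS+MYC. Upb1, an enzyme of pyrimidine breakdown, measured 6.87 and 6.76 in MYC then HRAS against 5.13 and 5.17 in HRAS then MYC, with a median of 5.42 in HRAS+MYC. Slfn3, of the Schlafen family, measured 6.55 and 6.76 in MYC then HRAS against 5.24 and 5.12 in HRAS then MYC, with a median of 5.22 in HRAS+MYC. The differences between the orders were 2.93 ± 0.51, 1.67 ± 0.18 and 1.48 ± 0.24. Upb1 and Slfn3 were called between the orders with any 1 array left out, and Padi4 was not called without HRAS then MYC replicate 2 (adjusted p 0.0838) or with only the 2 orders in the fit (0.0522).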

How the data were processed

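Per the submitters' processing notes, the authors used Affymetrix Expression Console 1.0 and RMA to make the deposited log2 values. RMA gives every array the same distribution, so an overall change in RNA is not seen, and weak signals are drawn together. The platform annotation gave 1 symbol for 21789 of 35557 probe sets. Each of the 19938 genes is represented by its brightest probe set on average.

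One limma 3.58.1 model (R 4.3.3) with a mean for each of 8 groups was fitted to all 32 arrays. Every adjusted p is from its 2-sided eBayes test with Benjamini-Hochberg adjustment over all genes, with calls under 0.05. The spread of each gene is thus estimated from all groups together. The script was tested on simulated data.

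The members, the lists and the naming rule were chosen with earlier results of these data known. The rule took the 14 largest non-overlapping differences per direction, up to 4 called members per list and direction, 16 histology markers and the 6 largest genes of each founder class; a gene named outside the rule is marked in the text as picked after its values were seen. The counts for lists and for distance from HRAS+MYC were recomputed under settings chosen after seeing the data. Replicate numbers are shared between the orders, and the deviations of same-numbered arrays correlated at -0.03, so arrays were not paired. The alternatives were other fits, filters, probe set rules, scalings, a replicate block and leaving out each array.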

Additional observations from a re-analysis of the deposited data

Results flagged for a closer look

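Values of 16 histology markers, the mean levels of 3 gene lists and the position between the founders were tested for a stray array in the HRAS+MYC, MYC and HRAS groups. Of these 60 sets 8 held 1 array far from the rest of its group. Chance flags about 1 in 20 such sets. Gfap had 1 high array of 6.71 among the 7 HRAS+MYC arrays, with the next at 5.57, and 1 of 9.08 among the 6 MYC arrays, with the next at 5.83. Sox2 had 1 low HRAS+MYC array, at 9.69 against 10.33 for the next. Vim had 1 low MYC array, at 9.16 against 11.51. Among the 5 HRAS arrays 1 was high for Tubb3 (8.08, next 6.31), for Map2 (9.99, next 6.18), for Syp (6.45, next 5.65) and for Mki67 (9.93, next 9.13). None of these arrays belongs to the 2 orders, which have too few arrays for such a test.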

How the results depend on the processing

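With 2 arrays a side, leaving out 1 array mattered most, and such a fit assumes that the lone array varies like the other groups. Over these fits the order comparison called 117 to 333 genes higher and 72 to 245 lower, the order minus founder difference 853 to 2123 lower, and the distance from HRAS+MYC 10 to 25 higher and 3 to 24 lower in MYC then HRAS and 302 to 1392 higher and 303 to 1093 lower in HRAS then MYC. Called list members ranged from 2 to 5 (epithelial, higher), 0 to 1 (matrix, higher) and 2 to 5 (matrix, lower). Differences of 7 uncalled genes changed sign: Myc ran from -0.6432 to 0.1157, Etv4 from -0.7299 to 0.1802, Axin2 from -0.2432 to 0.4111, Egf from -0.0134 to 0.1719, Prom1 from -0.0727 to 0.202, Slc1a3 from -0.2709 to 2.7297 and Olig1 from -0.3712 to 1.509. After a second quantile normalization Axin2 was -0.0051 and Egf -0.018, and after centring Axin2 was -0.0035, Egf -0.0082 and Prom1 -0.0228. With only the groups of a contrast in the fit, 3 genes of the RAS and MAP kinase list and 2 of the matrix list were called lower, and 1161 genes for the order minus founder difference. The replicate number as a block, with the 2 orders alone, gave 303 higher and 191 lower genes and 0 matrix genes higher. With all arrays the block gave 315 and 292. Requiring a difference of at least 1 gave 1065 and 1470 founder genes, 8 higher genes for MYC then HRAS against HRAS+MYC, and 502 higher and 596 lower for HRAS then MYC. Genes with a mean of at least 6 gave 6 higher and 4 lower for MYC then HRAS against HRAS+MYC. Of 69 called genes named in the text, 37 kept their call under each of up to 14 settings that tested them and 38 whichever array was left out, and none changed sign. The number of arrays limits precision, and no detection values were used. The causes of these changes were not tested.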

Other observations

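Enzymes that break down branched-chain amino acids and fatty acids in mitochondria were among the genes called lower in MYC then HRAS. They were picked out after their values were seen, so their number supports nothing. Both subunits of methylcrotonyl-CoA carboxylase, which acts on leucine, differed: Mccc1 measured 7.77 and 7.15 in MYC then HRAS against 8.61 and 8.98 in HRAS then MYC, and Mccc2 measured 7.48 and 6.85 against 8.23 and 8.50. The differences were -1.34 ± 0.29 for Mccc1 and -1.20 ± 0.29 for Mccc2. Acadm, which starts the oxidation of medium-chain fatty acids, differed by -1.01 ± 0.20, and Etfdh, which passes their electrons to the respiratory chain, by -1.10 ± 0.24. In each of the 4 genes the orders did not overlap, as in every called gene. All 4 lost their call without MYC then HRAS replicate 2 (adjusted p 0.229 for Mccc1, 0.355 for Mccc2, 0.111 for Acadm and 0.148 for Etfdh) and without HRAS then MYC replicate 2 (0.174, 0.234, 0.0955 and 0.14).

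A few more higher genes are given here, again named after their values were seen and belonging to no list. Gprc5a, an orphan receptor of airway epithelium, measured 9.80 and 10.22 in MYC then HRAS against 5.79 and 5.41 in HRAS then MYC (4.41 ± 0.45). Pls1, an actin bundler of microvilli, measured 10.63 and 10.02 against 5.88 and 5.86 (4.46 ± 0.66). Tead4, a transcription factor of the trophectoderm, measured 9.42 and 10.00 against 7.44 and 7.37 (2.31 ± 0.39). All 3 kept an adjusted p under 0.05 with any 1 array left out.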
